A study of Mus musculus with 4 samples.

Results

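Solute carriers are membrane proteins that move a substrate down its gradient or couple its transport to the gradient of sodium, protons or another solute. The genes examined here carry a symbol that begins with Slc and a digit and were chosen by their level, a mean of at least 1 FPKM over all 4 libraries (fragments scaled to transcript length and library size, as deposited by the authors). The count was 204 of 283 such genes, in a table of 18471 genes. Retinal RNA came from single embryos at embryonic day 19, 2 labelled wild-type and 2 labelled Foxn3KO, the latter homozygous (Foxn3-/-) for an allele of Foxn3, a forkhead transcription factor, that lacks its exon 3, in the line C57BL/6NJ-Foxn3em1(IMPC)Bay/Mmnc. The allele is a germline one, present in all cells of the embryo. No separate strain is given for the wild-type embryos.

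In the developing retina, carriers supply glucose, lactate and amino acids to dividing progenitors and young neurons, set chloride and pH, and load or clear neurotransmitters. Many work as families with overlapping substrates, so members were ordered by what they carry. Oligopeptide carriers of the Slc15 family take up dipeptides and tripeptides together with protons, and Slc15a2 (also called PEPT2) is the high-affinity member of kidney and brain. Heteromeric amino acid carriers pair the heavy subunit Slc3a2 with a light subunit of the Slc7 family, whose cationic carriers work without it.

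Total counts were 22543531 to 29360129 per library. Foxn3, the targeted gene, was higher under the Foxn3KO label (4181 and 3219 counts, 144 CPM in each) than under the wild-type label (2421 and 2712 counts, 97.6 and 99.8 CPM, where CPM are counts scaled to the library total). Its log2 fold change of Foxn3KO over wild-type was 0.54 (SE 0.05, edgeR adjusted p = 7.8e-08). Counts per gene do not resolve exon 3, so the deletion could not be checked, and each direction below rests on the labels. For Xist, 83073 counts were found in the first wild-type library against 9 to 19 elsewhere, so it differs in sex pattern. Lens RNA set it apart too: 8 lens genes summed to 3.87 CPM there, to 61.7 CPM in the second wild-type library, and to 229.9 and 227.5 CPM under the Foxn3KO label. All 7 progenitor and all 8 retinal neuron markers were detected in every library, with sums of 2369 to 2492 and 1380 to 1436 CPM.

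All 204 members passed the filter on low counts. Of these, 194 reached 1 FPKM in every library. The mean was under 1 FPKM under the wild-type label for 1 member, Slc10a4-ps, and under the Foxn3KO label for 5, namely Slc15a2, Slc30a3, Slc4a5, Slc4a10 and Slc44a5. These 6 entered through the group in which they were higher. Just inside the threshold lay Slc10a4-ps at 1.01 and Slc44a5 at 1.03 FPKM, and just outside it lay Slc23a4 at 0.991 and Slc22a21 at 0.975. A few members are not carriers although their symbols fit: Slc10a4-ps and Slc2a4rg-ps are pseudogenes, Slc4a1ap encodes an adaptor protein, and Slc7a6os is named for lying opposite Slc7a6.

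Slc15a2 (ENSMUSG00000022899, chromosome 16) is named in the choice of members for its lower level, so its values are given as a description without a test. Its counts were 1845 and 1414 under the wild-type label and 46 and 28 under the Foxn3KO label. These correspond to 74.4 and 52.0 against 1.58 and 1.25 CPM. Both Foxn3KO values lay far below both wild-type values, and the lowest wild-type value was 32.9 times the highest Foxn3KO value. In FPKM the level was 8.55 ± 2.13 against 0.192 ± 0.0315 (SD, n = 2 each). By this level Slc15a2 ranked 69 of 204 members under the wild-type label and last, 204, under the Foxn3KO label. The fitted log2 fold change of Foxn3KO over wild-type was -5.46, and it ranged from -5.69 to -5.17 when each library in turn was left out. The wild-type replicates themselves differed 1.43-fold. In RNA of the whole retina, fewer cells of a type and less RNA per cell cannot be told apart.

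The promoter of Slc15a2 is shown because it belongs to the member with the largest difference. It covers 250 bases before to 50 after the start in RefSeq (GRCm38.p6), 5′ to 3′ on the strand of the gene. Capitals would mark the forkhead core TGTTTAC, the shorter forkhead-like motif GACGC, the E-box CACGTG or the X-box half-site GTTGCC, on both strands. None of these 4 motifs is in the window.
Slc15a2, chr16:36784913-36785212, minus strand: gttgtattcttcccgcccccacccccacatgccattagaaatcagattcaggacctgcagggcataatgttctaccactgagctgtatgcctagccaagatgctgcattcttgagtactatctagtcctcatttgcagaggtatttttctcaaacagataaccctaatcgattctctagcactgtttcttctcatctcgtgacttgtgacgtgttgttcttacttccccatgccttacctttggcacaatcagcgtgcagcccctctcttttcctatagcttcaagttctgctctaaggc
No motif contains another, and CACGTG reads the same on both strands. Of 204 members, 158 had an entry, with 209 windows in all. TGTTTAC was in 1 of the 209 (0.478%), against 3.65% of all 32851 windows in the RefSeq table. GACGC was in 43.5% of member windows and 27.2% of all, CACGTG in 13.9% and 7.15%, and GTTGCC in 15.8% and 12.5%. These shares describe letters in windows that were not matched on base composition.

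The 3 tested genes on either side of Slc15a2 were read in the same libraries. Kpna1 had 118.6 and 111.2 CPM under the wild-type label and 115.9 and 115.7 under the Foxn3KO label, and Wdr5b had 17.02 and 13.51 against 16.17 and 15.72 CPM (edgeR adjusted p = 0.898 and 0.718). Next to Slc15a2, Fam162a fell from 89.9 and 74.6 to 72.6 and 70.1 CPM (log2 fold change -0.20, edgeR adjusted p = 0.0417). On the other side, Eaf2 had 0.968 and 1.10 against 0.962 and 1.03 CPM, and Iqcb1, which encodes a ciliary protein, had 57.3 and 52.8 against 51.2 and 50.2 CPM (edgeR adjusted p = 0.916 and 0.175). The third tested gene on that side, Golgb1, which encodes a Golgi tether, rose from 105 and 97.2 to 157 and 149.7 CPM, a log2 fold change of 0.60 (edgeR adjusted p = 6.79e-08). The log2 fold changes of these 6 neighbours lay between -0.20 and 0.60, against -5.46 for Slc15a2.

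Only 1 other oligopeptide carrier was a member. Slc15a4, a lysosomal carrier of histidine and peptides, had 26.9 and 26.4 CPM under the wild-type label and 24.8 and 25.0 under the Foxn3KO label. Its groups did not overlap, but its log2 fold change of -0.10 (SE 0.07) did not pass the test (edgeR adjusted p = 0.372). Per length, Slc15a2 was the more abundant of the pair under the wild-type label, at 8.55 against 4.996 FPKM, and Slc15a4 under the Foxn3KO label, at 4.67 against 0.192 FPKM. Slc15a3, below the threshold, had 14, 29, 32 and 19 counts, in the order wild-type 1 and 2, Foxn3KO 1 and 2.

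**Figure D1:**
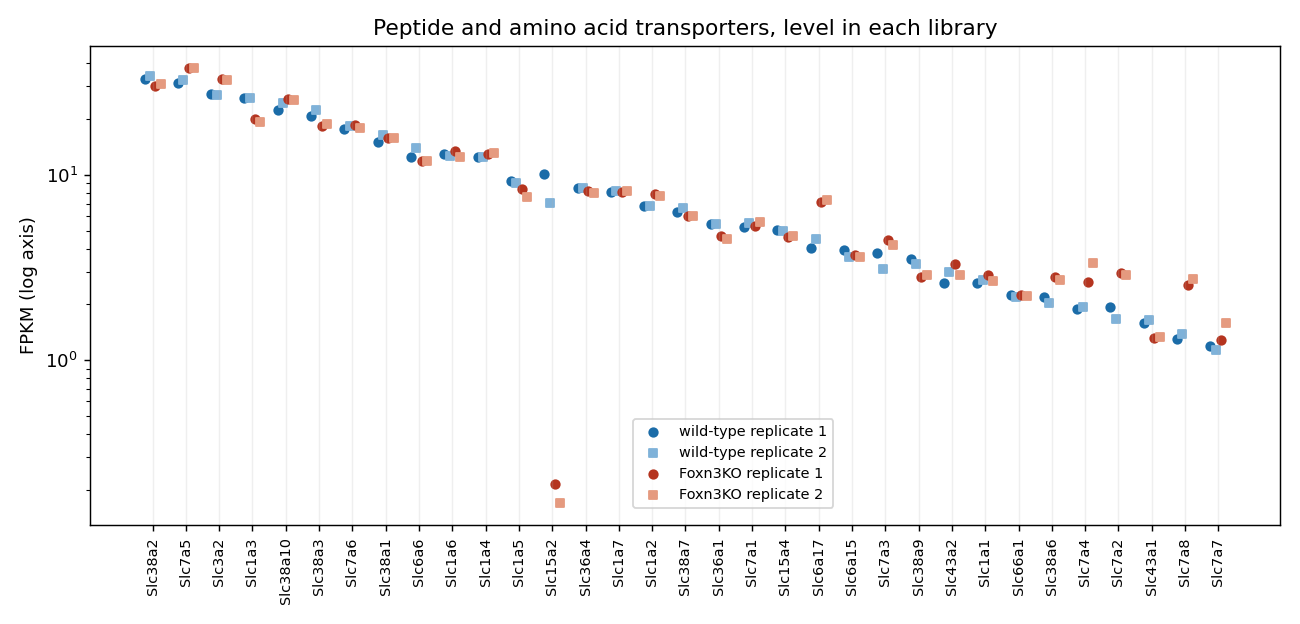
Level of the 33 peptide and amino acid members in each library (FPKM, log axis), ordered by the wild-type mean; circles are replicate 1 and squares replicate 2, blue wild-type and red Foxn3KO. Slc15a2 is the one member whose Foxn3KO points, at 0.214 and 0.169 FPKM, lie below 1.

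Across all carriers other than Slc15a2, 51 of 203 were called, that is, passed the edgeR quasi-likelihood test at an adjusted p of 0.05. This was 25.1%, against 21.9% of all 17300 genes tested and 25.6% of those with a mean of at least 1 FPKM. Of the 51, 17 were higher and 34 lower under the Foxn3KO label. Of the 198 with at least 1 FPKM in each group, 49 were called (24.7%), 17 higher and 32 lower. Higher calls made up 12.3% and lower calls 9.66% of all genes tested, or 14.1% and 11.5% at a mean of at least 1 FPKM. The median log2 fold change was -0.05 for the 203 members and -0.0047 for all genes tested. Most differences were small: 44 of the 51 were under 1.5-fold, and 196 of the 203 members stayed within 1.5-fold. The 7 larger ones were Slc7a8, Slc6a17, Slc7a2, Slc7a4, Slc17a7 and Slc25a14, which rose, and Slc30a3, which is one of those that entered through its level under the wild-type label. CPM values of the groups did not overlap for 137 members (67.5%), against 60.4% of all genes tested. Without Foxn3KO replicate 1 the count was 29 and without replicate 2 it was also 29, while 13.1% and 13% of all genes were then called. DESeq2 called 35 members and 16% of the genes it tested. In the same libraries, 6 of 7 tested lens markers were called higher and 4 of 8 pigment epithelium markers lower, and their part in the calls of the members was not tested.

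**Figure D2:**
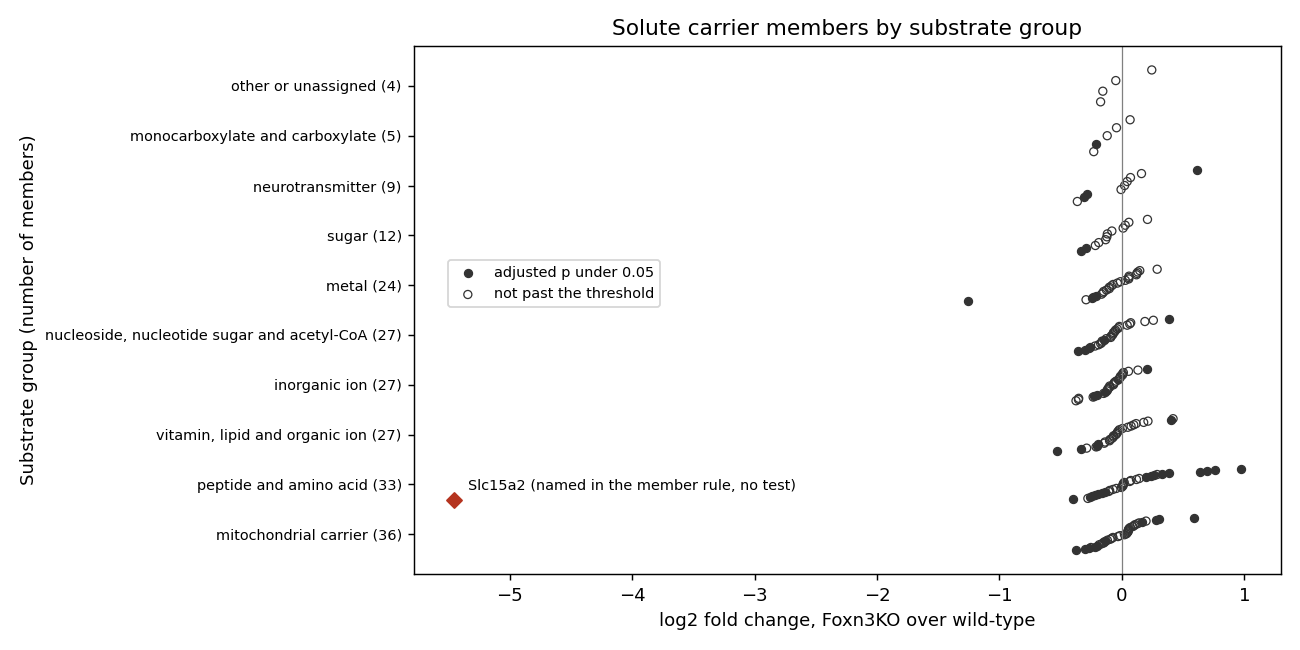
Log2 fold change (Foxn3KO over wild-type) of every member by substrate group, with the number of members in brackets; filled points passed the adjusted p threshold of 0.05 and the diamond is Slc15a2, not tested. Slc15a2 stands at -5.46, while the other members lie between -1.26 (Slc30a3) and 0.97 (Slc7a8).

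Among peptide and amino acid carriers other than Slc15a2, 16 of 32 were called (50%), 9 higher and 7 lower. The share called was 21.9% among all genes tested and 25.6% among those with a mean of at least 1 FPKM. The median log2 fold change of the 32 members was 0.01. Summed over the 32 members, the level was 319 and 327 FPKM under the wild-type label and 330.5 and 328 under the Foxn3KO label. The count was 9 without Foxn3KO replicate 1 and 10 without Foxn3KO replicate 2. Restricting the members to a mean of at least 5 FPKM left 9 called of 18.

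Of 8 members of the Slc7 family, 5 were called higher (62.5%) and none lower. Higher calls made up 12.3% of all genes tested and 14.1% of those with a mean of at least 1 FPKM. Among the 8, Slc7a5 to Slc7a8 are light subunits that pair with the heavy subunit Slc3a2, and 2 of these 4 rose, as did Slc3a2. Slc3a2 went from 97.2 and 95.3 to 116 and 114 CPM, a log2 fold change of 0.26 (SE 0.05, edgeR adjusted p = 0.000569). Slc7a5, the light subunit LAT1 for large neutral amino acids and the most abundant member of the group at 34.9 FPKM, rose from 116 and 122 to 141 CPM in both libraries (log2 fold change 0.24, SE 0.05, edgeR adjusted p = 0.000951). In both genes the 2 Foxn3KO values lay above the 2 wild-type values. Slc7a8, the light subunit LAT2, went from 6.53 and 6.96 to 12.8 and 13.7 CPM. Its log2 fold change of 0.97 (SE 0.12, edgeR adjusted p = 6.57e-06) was the highest of the 203 members, from a level of 1.34 FPKM under the wild-type label. Light subunits Slc7a6 and Slc7a7 had log2 fold changes of 0.01 (SE 0.05) and 0.29 (SE 0.18) and did not pass (edgeR adjusted p = 0.923 and 0.279). Below the minimum of 1 FPKM, the Slc7 family also held Slc7a11, called higher, and Slc7a10, called lower.

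The cationic amino acid carriers of the same family take up arginine and lysine. Slc7a2 rose from 17.8 and 15.2 to 27.0 and 26.5 CPM, a log2 fold change of 0.70 (SE 0.09, edgeR adjusted p = 1.16e-05). Slc7a3, on the X chromosome, had 14.3 and 11.8 against 16.8 and 15.9 CPM (log2 fold change 0.33, edgeR adjusted p = 0.0342). It lost the call in DESeq2 (adjusted p = 0.138), without wild-type replicate 2 (0.20, edgeR adjusted p = 0.207) and without either Foxn3KO library (0.28 and 0.37). Slc7a1, the most abundant of them at about 5.36 FPKM under the wild-type label, did not pass, at 60.9 and 63.2 against 61.0 and 64.1 CPM (log2 fold change 0.01, edgeR adjusted p = 0.907). The related Slc7a4, whose substrate is not settled, rose from 7.86 and 8.10 to 11.02 and 13.9 CPM (0.64, SE 0.13, edgeR adjusted p = 0.00142). Exons of Slc7a4 overlap those of P2rx6 on the opposite strand, and the use of strand in counting was not given.

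**Figure D3:**
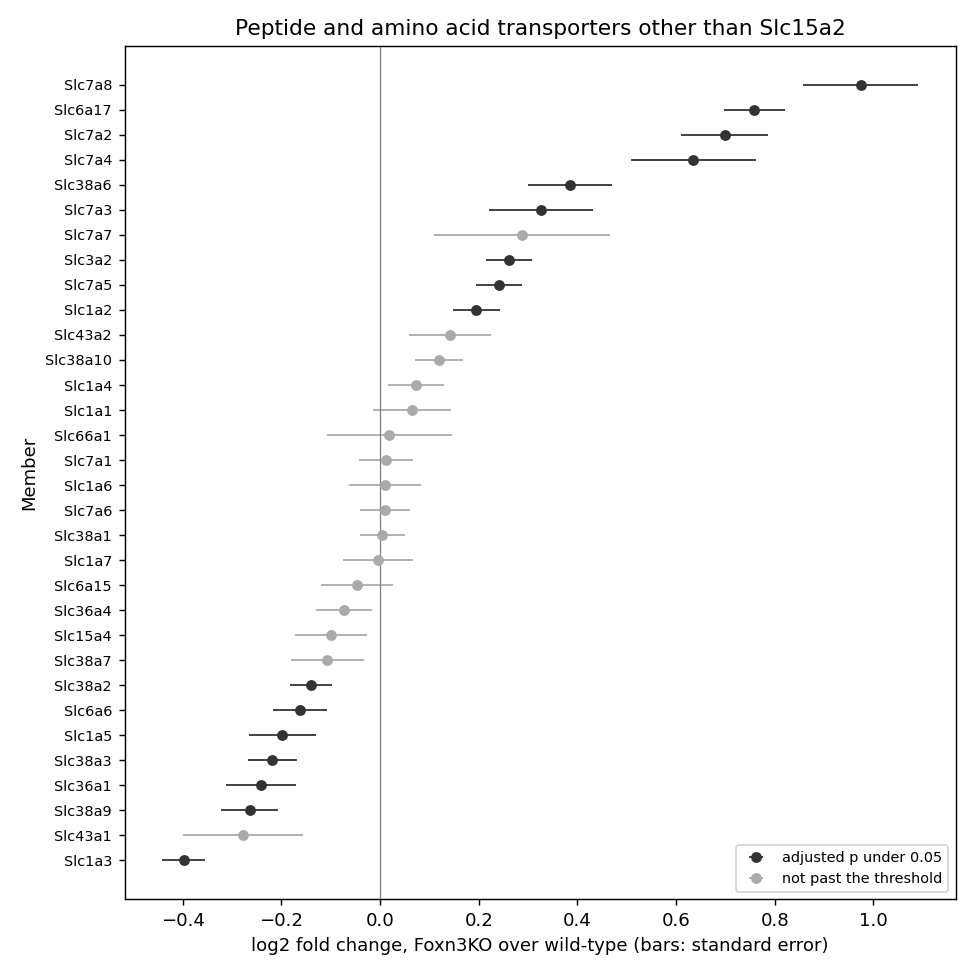
Log2 fold change (Foxn3KO over wild-type) of the 32 peptide and amino acid members other than Slc15a2, with bars for the standard error; dark points passed the adjusted p threshold of 0.05. Slc7a8, Slc6a17, Slc7a2 and Slc7a4 lie between 0.64 and 0.97, apart from the rest, and Slc1a3 is lowest at -0.40.

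Sodium-coupled carriers went both ways. Slc6a17, a carrier of neutral amino acids on synaptic vesicles, had 41.6 and 46.3 CPM under the wild-type label and 73.5 and 75.3 under the Foxn3KO label. Its log2 fold change of 0.76 (SE 0.06, edgeR adjusted p = 3.47e-08) had the smallest p of the 203 members. Slc6a6, the taurine transporter, fell from 107 and 119 to 101 and 100.3 CPM (-0.16, edgeR adjusted p = 0.0393), and this call was lost in DESeq2 (adjusted p = 0.11), without wild-type replicate 2 (-0.08) and without either Foxn3KO library (-0.17 and -0.15). The related Slc6a15 did not pass, with a log2 fold change of -0.05 (edgeR adjusted p = 0.714).

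The promoters of the members with the largest rise and with the smallest p, Slc7a8 and Slc6a17, are shown with that of Slc30a3, which had the lowest log2 fold change after Slc15a2, for comparison with Slc15a2. Window, build, motifs and capitals are as above. Slc6a17 has another window and so does Slc30a3, and neither of those holds any of the motifs.
Slc7a8, chr14:54781837-54782136, minus strand: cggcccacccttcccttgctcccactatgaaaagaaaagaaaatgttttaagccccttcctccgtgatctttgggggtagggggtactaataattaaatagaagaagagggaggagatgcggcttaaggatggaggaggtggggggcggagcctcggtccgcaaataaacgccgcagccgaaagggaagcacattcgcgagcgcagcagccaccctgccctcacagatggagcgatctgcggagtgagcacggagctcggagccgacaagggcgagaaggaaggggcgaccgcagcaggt
Slc6a17, chr3:107517969-107518268, minus strand: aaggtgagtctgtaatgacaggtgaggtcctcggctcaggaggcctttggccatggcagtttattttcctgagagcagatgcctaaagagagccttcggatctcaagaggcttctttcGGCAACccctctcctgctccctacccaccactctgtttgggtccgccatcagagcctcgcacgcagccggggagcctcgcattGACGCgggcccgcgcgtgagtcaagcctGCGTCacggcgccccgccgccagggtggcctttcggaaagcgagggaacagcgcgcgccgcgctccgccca
Slc30a3, chr5:31108195-31108494, minus strand: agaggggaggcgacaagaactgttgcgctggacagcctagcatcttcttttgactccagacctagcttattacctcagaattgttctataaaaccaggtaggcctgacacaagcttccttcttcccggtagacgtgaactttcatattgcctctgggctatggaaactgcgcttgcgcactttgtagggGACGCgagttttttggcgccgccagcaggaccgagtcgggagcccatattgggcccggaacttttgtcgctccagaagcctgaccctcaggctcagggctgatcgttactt
The Slc6a17 window holds GACGC at 2 places and the X-box half-site at 1, the Slc30a3 window holds GACGC at 1, and the Slc7a8 window holds none. Over the windows of called members, GACGC was in 41.2% of 17 from higher members and 43.2% of 37 from lower members. CACGTG was in 23.5% and 10.8% of these windows, and GTTGCC in 23.5% and 21.6%. TGTTTAC was in none of either set.

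In the glutamate and neutral amino acid family Slc1, 3 of 7 members were called (42.9%). The share was 21.9% among all genes tested and 25.6% among those averaging at least 1 FPKM. Slc1a3 (GLAST), the glutamate transporter of progenitors and Müller glia, fell from 222 and 221 to 170.4 and 166 CPM. Its log2 fold change was -0.40 (SE 0.04, edgeR adjusted p = 1.78e-06). Slc1a2 (GLT-1), known from astrocytes and from cones and bipolar cells, rose from 89.9 and 89.0 to 103 and 101 CPM (0.20, SE 0.05, edgeR adjusted p = 0.00709). Slc1a5, a neutral amino acid exchanger that carries glutamine, had 39.0 and 37.8 against 34.96 and 31.97 CPM (-0.20, edgeR adjusted p = 0.0460). Its call was lost in DESeq2 (adjusted p = 0.193), in limma-voom, without wild-type replicate 1 (-0.17, edgeR adjusted p = 0.0861) and without Foxn3KO replicate 1 or 2 (-0.26 and -0.13), and that of Slc1a2 without Foxn3KO replicate 1 or 2 (0.18 and 0.21). The other 4, Slc1a1, Slc1a4, Slc1a6 and Slc1a7, did not pass, with log2 fold changes of 0.06, 0.07, 0.01 and -0.004.

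Astrocyte markers were read beside these carriers, and 2 of 5 were called higher and 1 lower. Gfap had 31.98 and 28.05 CPM under the wild-type label against 14.6 and 15.1 under the Foxn3KO label. Aldh1l1 went from 2.14 and 2.54 to 4.33 and 4.29 CPM, and Slc1a2 is itself the other higher marker. Aqp4 and Pax2 did not pass. Slc1a2 makes up most of the summed level of the list. Without it the other 4 summed to 39.4 and 37.1 CPM under the wild-type label and 24.7 and 26.2 CPM under the Foxn3KO label. Gfap made up most of these sums, so they say little about Aldh1l1, which was higher, Aqp4 and Pax2. The part of astrocytes in the Slc1 values was not tested.

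Glutamine and small neutral amino acid carriers of the Slc38 family moved in both directions. Of 7, 3 were called lower and 1 higher (57.1%, against 21.9% of all genes tested and 25.6% of those averaging at least 1 FPKM). Slc38a2 (SNAT2) fell from 293 and 302 to 268 and 273 CPM (log2 fold change -0.14, SE 0.04, edgeR adjusted p = 0.0224). Slc38a3, a glutamine transporter, fell from 110.4 and 118 to 97.3 and 99.1 CPM (-0.22, edgeR adjusted p = 0.00409). Slc38a9, the lysosomal arginine sensor of the mTORC1 pathway, fell from 58.9 and 55.6 to 47.1 and 48.3 CPM (-0.26, edgeR adjusted p = 0.00303). The exception was Slc38a6, which rose from 17.2 and 15.8 to 22.01 and 21.0 CPM (0.39, edgeR adjusted p = 0.00356). Another lysosomal carrier, the proton-coupled Slc36a1, had 30.6 and 30.5 against 26.4 and 25.3 CPM (-0.24, edgeR adjusted p = 0.0208), a call lost in DESeq2 (adjusted p = 0.12) and without Foxn3KO replicate 1 or 2 (-0.27 and -0.21). Slc38a2 lost its call without Foxn3KO replicate 1 or 2 (-0.12 and -0.15), and Slc38a3 without Foxn3KO replicate 1 (-0.20).

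Sugar carriers included the most abundant member of all. Slc2a1 (GLUT1), the glucose transporter of retinal cells, endothelium and pigment epithelium, stood at 181 FPKM over the 4 libraries and fell from 683 and 718 to 567 and 574 CPM. The log2 fold change was -0.30 (SE 0.04, edgeR adjusted p = 3.43e-05). Slc2a8, an intracellular hexose transporter, had 21.2 and 21.3 against 15.4 and 18.4 CPM (-0.34, edgeR adjusted p = 0.0147; DESeq2 adjusted p = 0.0711). These 2 were the called ones among 12 sugar members (16.7%, against 21.9% of all genes tested), both lower. Without Foxn3KO replicate 1, Slc2a8 lost its call (-0.21). In the monocarboxylate group, 1 of 5 was called (20%, against 21.9% of all genes tested). It was Slc16a3 (MCT4), a lactate exporter of glycolytic cells, which fell from 161 and 158 to 138 and 136 CPM (-0.21, SE 0.04, edgeR adjusted p = 0.00184). Its call was lost without Foxn3KO replicate 2 (-0.20).

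Markers of pigment epithelium and vessels, tissues that also carry glucose and lactate transporters, were read beside these. Of 8 tested pigment epithelium markers, 4 were called lower and none higher, with sums of 89.3 and 118 CPM under the wild-type label and 72.6 and 73.7 under the Foxn3KO label. None was at 0 in any library. Rlbp1 and Pmel made up most of these sums. The called Pmel, Rlbp1 and Ttr were lower in each Foxn3KO library than in both wild-type libraries. Tyr, also called, had 2.98 CPM in wild-type replicate 1 and 5.67 in replicate 2, against 2.78 and 1.92 under the Foxn3KO label. Of 10 endothelial and mesenchymal markers, 3 were called higher (Pecam1, Rgs5 and Tek) and none lower. The sums over the 10 were 401 and 419 against 401 and 395 CPM. Kdr made up most of these sums, at 358.8 and 373 against 353.7 and 347.3 CPM, so they say little about the other markers. Their part in the lower sugar and lactate carriers was not tested.

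Transmitter carriers had 3 of 9 members called (33.3%, against 21.9% of all genes tested and 25.6% of those averaging at least 1 FPKM). Slc18a2 (VMAT2), which loads monoamines into vesicles, fell from 46.4 and 49.7 to 38.6 and 40.0 CPM (log2 fold change -0.29, edgeR adjusted p = 0.00265). Slc17a7 (VGLUT1), the vesicular glutamate transporter of photoreceptors and bipolar cells, rose from 12.5 and 11.3 to 17.99 and 18.3 CPM (0.61, SE 0.10, edgeR adjusted p = 0.00014). Both kept their call when each library in turn was left out, and without wild-type replicate 2 the group had 5 calls.

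The other transmitter carriers that mark neuron classes did not pass. Slc17a6 (VGLUT2), of ganglion cells, had 39.1 and 43.6 against 40.1 and 42.1 CPM (log2 fold change -0.01, SE 0.07, edgeR adjusted p = 0.957). Slc6a9 (GLYT1), of glycinergic amacrine cells, had 29.7 and 32.5 against 31.4 and 31.8 CPM (edgeR adjusted p = 0.869). In these 2 genes the groups overlapped. Slc32a1, which loads GABA and glycine into vesicles, had 25.7 and 27.7 against 30.2 and 29.5 CPM (0.16, SE 0.07, edgeR adjusted p = 0.132). Slc18a3, the vesicular acetylcholine transporter of starburst amacrine cells, had 5.16 and 6.40 against 4.19 and 4.87 CPM (-0.36, SE 0.17, edgeR adjusted p = 0.138). Without wild-type replicate 1, Slc18a3 passed, at -0.51 (edgeR adjusted p = 0.0339), and Slc32a1 passed without wild-type replicate 2, at 0.21 (edgeR adjusted p = 0.0450).

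**Figure D4:**
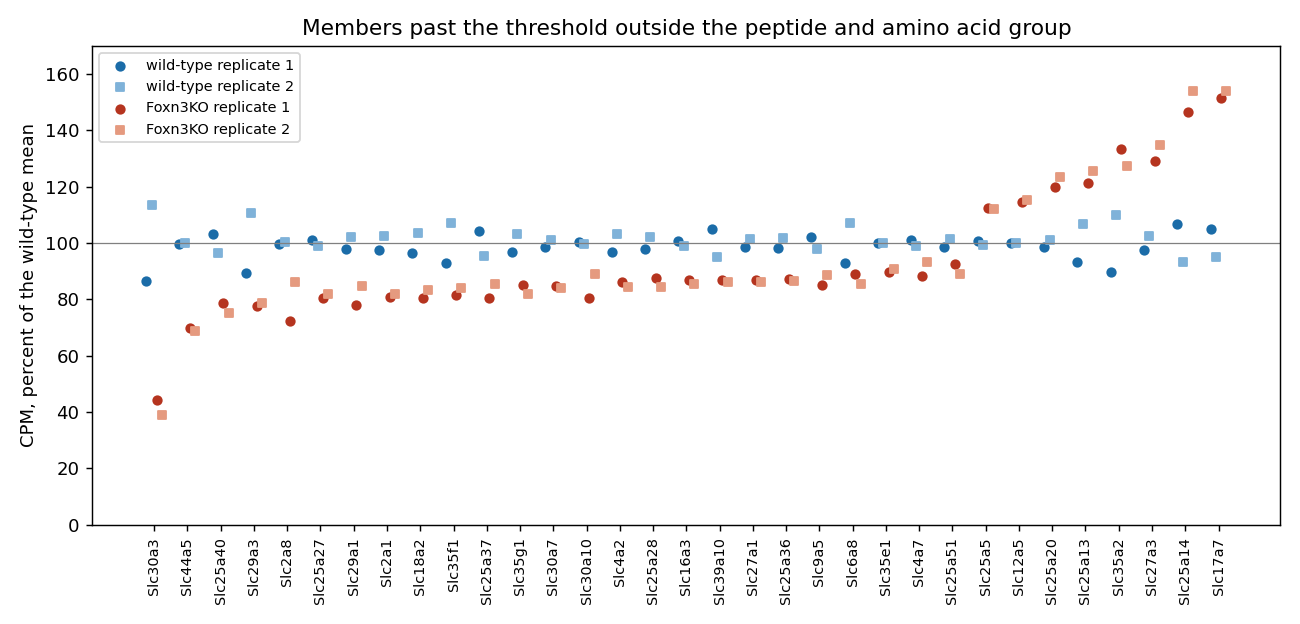
CPM of each library as a percent of the wild-type mean for 33 of the 35 members outside the peptide and amino acid group with an adjusted p under 0.05 (2 lower ones are not drawn); colours and shapes mark genotype and replicate as before. Slc30a3 is lowest in both Foxn3KO libraries, Slc17a7 and Slc25a14 are highest, and 25 of the members drawn are lower and 8 higher.

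Metal carriers had 4 of 24 members called (16.7%, against 21.9% of all genes tested), all lower. The count includes Slc30a3, which entered through its level under the wild-type label. Slc30a3 (ZnT3), which loads zinc into synaptic vesicles, had 5.65 and 7.40 CPM under the wild-type label and 2.88 and 2.54 under the Foxn3KO label. Its fitted log2 fold change was -1.26. Because it reached the minimum of 1 FPKM only through the wild-type label (2.29 against 0.955 FPKM), this is a description and supports nothing further. The count of 4 was 2 without Foxn3KO replicate 1 and 2 without replicate 2. Slc30a7, a zinc carrier of the Golgi, fell from 45.5 and 46.6 to 39.0 and 38.8 CPM (-0.24, edgeR adjusted p = 0.00719), a call that needed both Foxn3KO libraries (-0.25 and -0.24 without one). Slc39a1 (ZIP1), a zinc importer and the most abundant metal carrier at 27.6 FPKM, had 66.2 and 68.0 against 63.7 and 64.1 CPM and did not pass (edgeR adjusted p = 0.374).

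Inorganic ion carriers had 4 of 27 called (14.8%, against 21.9% of all genes tested), 1 higher and 3 lower. Slc12a5 (KCC2), the chloride exporter of maturing neurons, rose from 60.0 and 60.1 to 68.8 and 69.2 CPM (log2 fold change 0.20, SE 0.05, edgeR adjusted p = 0.0104). Slc4a2, an exchanger of chloride and bicarbonate, fell from 46.0 and 49.1 to 41.0 and 40.2 CPM (-0.23, edgeR adjusted p = 0.0123), and Slc9a5, a sodium-proton exchanger, from 53.1 and 50.8 to 44.3 and 46.0 CPM (-0.20, edgeR adjusted p = 0.0201). DESeq2 called neither Slc4a2 nor Slc9a5 (adjusted p = 0.0666 and 0.0982), and exons of Slc4a2 overlap those of Fastk on the opposite strand. The most abundant ion carrier, the phosphate transporter Slc20a1 at 22.03 FPKM, had 131 and 124 against 118 and 120.1 CPM (-0.10, edgeR adjusted p = 0.153). The count of 4 was 1 without Foxn3KO replicate 1, 1 without replicate 2, 8 without wild-type replicate 1, 7 without wild-type replicate 2, and 1 in DESeq2. Slc12a5 was not among those called without a Foxn3KO library (0.21 and 0.20).

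Carriers of the mitochondrial family, most of which exchange metabolites across the inner membrane, had 10 of 36 called (27.8%), 4 higher and 6 lower. Of all genes tested 21.9% were called, and of those averaging at least 1 FPKM 25.6%. The most abundant of the 36 was Slc25a4, an exchanger of ADP and ATP at 166 FPKM. Slc25a4 had 385 and 382 against 404 and 400.1 CPM and did not pass (edgeR adjusted p = 0.244). Slc25a14, a carrier of the uncoupling protein branch on the X chromosome, rose from 20.1 and 17.5 to 27.6 and 28.98 CPM (log2 fold change 0.59, SE 0.08, edgeR adjusted p = 5e-05). Slc25a13, the aspartate-glutamate carrier citrin, had 21.4 and 24.5 against 27.9 and 28.8 CPM (0.30, edgeR adjusted p = 0.0114). Its call was lost in DESeq2 (adjusted p = 0.0561), without wild-type replicate 1 (0.21, edgeR adjusted p = 0.0585) and without Foxn3KO replicate 2 (0.28). Slc25a40, known for glutathione import into mitochondria, fell from 31.3 and 29.3 to 23.9 and 22.8 CPM (-0.38, edgeR adjusted p = 0.00133). Slc25a27, of the uncoupling protein branch like Slc25a14, fell from 83.0 and 81.3 to 66.1 and 67.3 CPM (-0.30, edgeR adjusted p = 0.000324). The count of 10 was 5 without Foxn3KO replicate 1, 4 without replicate 2 and 6 in DESeq2. The sum over the 36 carriers was 654 and 659 FPKM under the wild-type label and 675 and 673 under the Foxn3KO label.

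Nucleoside and nucleotide sugar carriers had 6 of 27 called (22.2%, against 21.9% of all genes tested), 1 higher and 5 lower. Slc35a2, the Golgi carrier of UDP-galactose on the X chromosome, rose from 22.9 and 28.1 to 34.1 and 32.5 CPM (log2 fold change 0.38, SE 0.09, edgeR adjusted p = 0.00356). Without wild-type replicate 1 its log2 fold change was 0.25 (edgeR adjusted p = 0.0107). The nucleoside carriers Slc29a1 and Slc29a3 fell, from 29.03 and 30.4 to 23.2 and 25.2 CPM (-0.30, edgeR adjusted p = 0.0081) and from 16.2 and 20.1 to 14.1 and 14.3 CPM (-0.36, edgeR adjusted p = 0.0207). DESeq2 did not call Slc29a3 (adjusted p = 0.0893), and its call was also lost without wild-type replicate 2 (-0.19) or Foxn3KO replicate 1 (-0.34), as was that of Slc29a1 without Foxn3KO replicate 1 (-0.24). The count of 6 was 2 without Foxn3KO replicate 1, 10 without wild-type replicate 1 and 3 in DESeq2. Slc35b1, an ATP carrier of the endoplasmic reticulum and the most abundant here at 27.8 FPKM, had 60.3 and 60.9 against 63.4 and 63.3 CPM and did not pass (edgeR adjusted p = 0.443).

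In the group of vitamin, lipid and organic ion carriers, 5 of 27 were called (18.5%), 1 higher and 4 lower, or 3 without Foxn3KO replicate 2. Of all genes tested, 21.9% were called with all 4 libraries. Slc27a3, a fatty acid transport protein with acyl-CoA synthetase activity, rose from 12.7 and 13.4 to 16.8 and 17.6 CPM (log2 fold change 0.40, SE 0.09, edgeR adjusted p = 0.00498). Slc44a5, of the choline transporter-like family, had 8.87 and 8.91 against 6.22 and 6.12 CPM, given as a description because it reached 1 FPKM only under the wild-type label (1.22 against 0.845 FPKM). It is included in the 4 counted as lower. The most abundant member, Slc22a17, a receptor for lipocalin-bound iron, had 144 and 155 against 143 and 148 CPM, groups that overlapped (edgeR adjusted p = 0.650). The 4 members without a substrate group had no call, and the most abundant of them, Slc7a6os, had 58.1 and 50.9 against 48.4 and 49.4 CPM (edgeR adjusted p = 0.102).

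Members on the X chromosome were read with the sex pattern of wild-type replicate 1 in view. Of 9 such members, 6 were called, 4 higher and 2 lower, against 23.8% of 555 tested genes on X and 21.9% of all tested genes. All 6 kept their sign and were also called without wild-type replicate 1, where the spread comes from the Foxn3KO pair alone. That pair differed less than the wild-type pair (mean chi-square per gene of 1.88 against 9.94), and 24.9% of the 555 X genes were called in that fit. Away from the X chromosome, 45 of 194 members were called. Across the 203 members, leaving out wild-type replicate 1 gave 65 calls, 49 of them among the 51, with 24.3% of all genes then called.

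**Figure D5:**
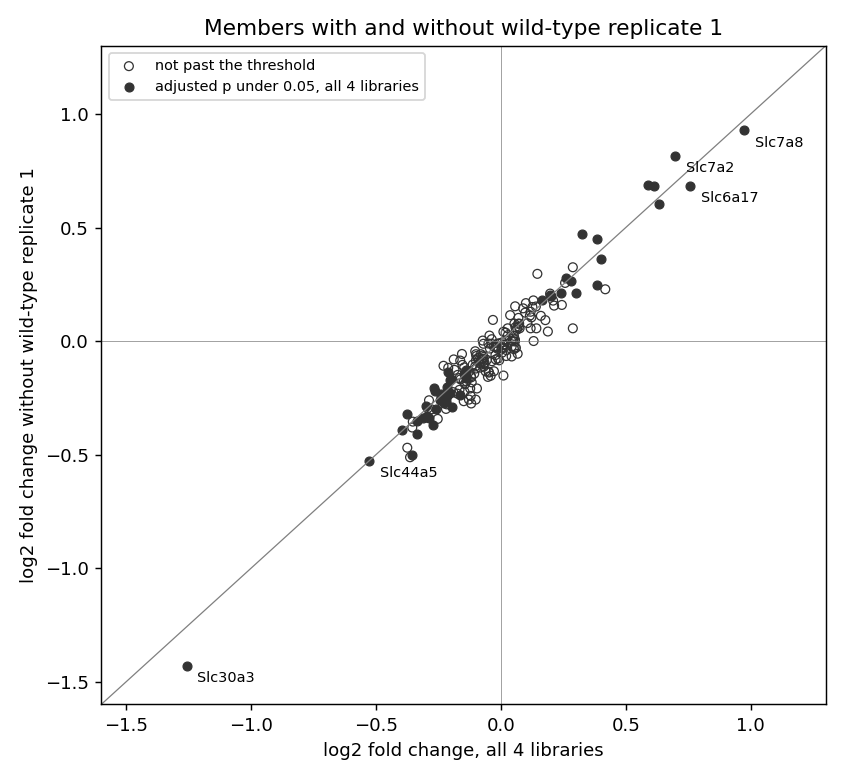
Log2 fold change of the 203 members other than Slc15a2 with all 4 libraries (horizontal axis) and without wild-type replicate 1 (vertical axis), with the line of equality; filled points passed the adjusted p threshold of 0.05 with all 4. Slc30a3 went from -1.26 to -1.43 and Slc7a8 from 0.97 to 0.93, and every filled point kept its sign. Where the groups of a member do not overlap, leaving out a library can hardly change the sign.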

How the data were processed

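Per the labels, total RNA of the retina of single embryos was sequenced with a directional kit and adaptors that carry molecular identifiers. The authors deposited 1 table with raw counts per gene and library, FPKM values, a mean signal, and log2 fold changes and p-values of their own, which were not used here. The submitters' processing notes name DESeq2 and mm39, without roles; the aligner, the counter, the use of strand and the removal of duplicates were not given in the sources used here. The table had 18472 entries; 1 repeated identifier was dropped.

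After filterByExpr, 17300 genes entered a two-sided quasi-likelihood test of genotype with no other term (edgeR 4.0.16, its current fit, TMM scaling). Adjusted p-values are Benjamini-Hochberg values over these genes, with a threshold of 0.05. Standard errors were derived from the log2 fold change and its F value. Alternatives were RLE and total count scaling, no filter, the earlier edgeR fit, DESeq2 1.42.0, limma-voom (limma 3.58.1), the replicate number as a term, each library left out, and mean FPKM minimums of 5 and 0.1. The procedure was tested on simulated counts with larger changes than most of those called here. That test does not bear on the smaller changes.

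Members and lists were chosen with earlier results of these data known. Named were Slc15a2 and Slc15a4, every called and the 3 most abundant peptide and amino acid members, and in each other group the most abundant member and up to 2 called, non-overlapping members per direction with the largest change. Members of a list of 11 carriers that mark cell classes were also named, of which 7 were members. A few members that this rule names are counted but not reported here. Where the text names genes outside this rule, they were chosen after their values were seen. A limit of 3 counts corresponds to 0.103 to 0.134 CPM, for counting error only. By the exon positions of GENCODE M21, which is of another build, 60 members have an exon overlapped by another gene, 14 of them called. Those called include Slc2a1, Slc1a2, Slc7a2, Slc38a9, Slc29a1, Slc30a7, Slc18a2 and Slc6a6, each overlapped on the opposite strand. No label says that equal replicate numbers share a litter or day. Figures were drawn with matplotlib 3.10.9.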

Additional observations from a re-analysis of the deposited data

How the results depend on the processing

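The 51 called members became 50 with RLE factors, 62 with total count scaling, 52 without the filter, 52 with the earlier edgeR fit, 52 with limma-voom, 35 with DESeq2, and 36 of 117 at a mean of at least 5 FPKM. None of the 51 changed sign in any of these or when a library was left out. Where the groups of a member do not overlap, leaving out a library can hardly change its sign, so this is no further support. With the replicate block, 60 members were called, including all 51. The difference between replicates 1 and 2 correlated at -0.00825 between the groups over 17300 genes. Because the wild-type pair also differs in Xist and lens RNA, this cannot tell whether equal numbers share a litter or day. The block left 16 peptide and amino acid members called. Leaving out each library gave 29 to 65 called members and 9 to 16 called peptide and amino acid members; the lower counts came without a Foxn3KO library and the higher ones without a wild-type library. The wild-type pair differed more than the Foxn3KO pair (mean chi-square per gene of 9.94 against 1.88), and the cause was not tested. At a mean of at least 5 FPKM, 9 of 18 peptide and amino acid members were called, as fewer genes are counted. Sign changes occurred in members near 0: Slc22a17 ranged from -0.089 to 0.018, Slc17a6 from -0.085 to 0.071 and Slc6a9 from -0.04 to 0.087 over the fits that left out 1 library. For the named members, the other alternatives gave 332 results on the same side of the threshold and 11 that lost the call; leaving out a library gave 157 on the same side, 31 that lost the call, 4 that gained it and 4 reversed. With 2 libraries a group, depth limits the members near 1 FPKM: the standard error was 0.25 at most and 0.07 at the median.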

Other observations

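Below the mean of 1 FPKM lay 79 further Slc genes, of which 66 were tested and 13 called (19.7%, against 21.9% of all genes tested), 9 higher and 4 lower. The genes named here were chosen after their values were seen. Slc7a11 (xCT), which exchanges cystine for glutamate and pairs with the heavy subunit Slc3a2, rose from 178 and 170 counts under the wild-type label to 521 and 381 under the Foxn3KO label. Its log2 fold change of 1.38 (SE 0.11, edgeR adjusted p = 3.88e-08) was larger than that of any member that rose. Slc38a4, a neutral amino acid carrier, rose from 45 and 43 to 141 and 85 counts (1.36, edgeR adjusted p = 0.0002). Both had no overlap between the groups and were also called by DESeq2 (adjusted p = 2.89e-15 and 0.000457).

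Other low-level carriers were lower. Slc6a5 (GLYT2), a neuronal glycine transporter, fell from 149 and 133 to 61 and 64 counts (log2 fold change -1.15, edgeR adjusted p = 0.000406). Slc7a10, a light subunit that carries small neutral amino acids such as serine, fell from 47 and 63 to 20 and 24 counts (-1.30, edgeR adjusted p = 0.00581). Its call was lost without Foxn3KO replicate 1 (-0.975). Slc24a5, an exchanger of melanosomes in pigment cells, fell from 54 and 68 to 40 and 25 counts (-0.90, edgeR adjusted p = 0.0223), a call that DESeq2 did not make (adjusted p = 0.124). The call of Slc24a5 was also lost without Foxn3KO replicate 2 (-0.767) and without wild-type replicate 2 (-0.785). Of the 8 tested pigment epithelium markers, 4 were lower too, and their part in the Slc24a5 value was not tested.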
